A study of Bos taurus with 20 samples.

Results

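Clonal mesenchymal stem cell (MSC) populations from bovine adipose tissue differ in how much messenger RNA of cell division they carry, and these 20 clones were grouped by that measure within each condition. The score of a clone was the mean of log2(CPM + 1) over 8 transcripts of dividing cells: MKI67, TOP2A, CCNB1, CDK1, BUB1, AURKB, PLK1 and TPX2. CPM is the depth-scaled count of a gene, here relative to all counts of its library. Of the 10 adipogenic (A) clones the 5 of highest score were called fast and the 5 of lowest score slow, and the 10 non-adipogenic (N) clones were divided in the same way, so that 10 of the 20 clones were fast and 10 were slow. The names stand for a transcript score only. No division rate was measured in these files.

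A cell that divides copies its DNA in S phase and then passes through G2 into mitosis, where kinases and a spindle of microtubules separate the chromosomes. Cyclin-dependent kinases (CDKs) drive these steps, D-type cyclins act in G1 before S phase, and CDK inhibitors hold cells there. Many transcripts of G2 and mitosis are made in each cycle and removed afterwards, so their level in a culture follows the share of cells in those phases, and pre-adipocytes are known to leave the cycle when they differentiate.

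Each clone was grown from a single sorted cell of MSC cultures of visceral fat of calves. The medium held serum, basic fibroblast growth factor and medium conditioned by MSC cultures of the same animal. Each clone gave 1 RNA library before any differentiation, from cells saved once an expanded culture had reached confluence. According to the paper, N clones reached confluence earlier after seeding than A clones. A clones accumulated lipid in a separate differentiation test and N clones did not. The same numbers of A and N clones came from each animal: 1 of each from animals 17 and 20, and 4 of each from animals 22 and 23. Clones of 1 animal share its genotype and its parent culture, so p-values below measure the spread between clones. In a bulk library, fewer cells in division and less RNA per dividing cell cannot be told apart. Clones are named by animal and clone number, as in 22-5.

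Named counts per library ranged from 14615493 to 43111345. They averaged 17380000 ± 4029000 in fast and 21440000 ± 8957000 in slow clones (SD, n = 10), and did not differ in a two-sided exact permutation test within conditions (p = 0.234). The 100 most abundant genes took 26.9% ± 2.41 of the counts in fast and 28.7% ± 2.39 in slow clones (p = 0.0246 in the same exact permutation test). Markers of cultured mesenchymal cells were high in every clone, with a summed level over 13 markers of 30140 to 60030 CPM in fast and 31850 to 64780 CPM in slow clones. The 11 macrophage and leucocyte markers summed to at most 12.5 CPM in any clone.

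Among the A clones, the scores of the fast clones were 5.26 (23-62), 4.89 (22-121), 4.27 (22-27), 4.17 (22-16) and 3.99 (22-11). The slow A clones had scores of 3.96 (23-108), 3.61 (23-14), 3.41 (23-68), 3.14 (17-57) and 1.91 (20-106). The step between the classes was only 0.0286, whereas 20-106 stood apart at the low end.

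Among the N clones, the fast clones scored 5.99 (22-5), 5.90 (22-9), 5.86 (23-74), 5.34 (20-15) and 5.06 (23-23). The slow N clones scored 5.05 (23-10), 4.85 (17-23), 4.67 (22-17), 4.62 (23-22) and 3.80 (22-18). Here the classes were parted by 0.00957, so the border between fast and slow falls inside a continuous range in both conditions. When CPM was scaled by TMM factors (which correct for differences in composition), 22-11 and 23-108 changed places, and when clones were ranked by a list of S-phase genes, 23-23 and 23-10 did.

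**Figure D1:**
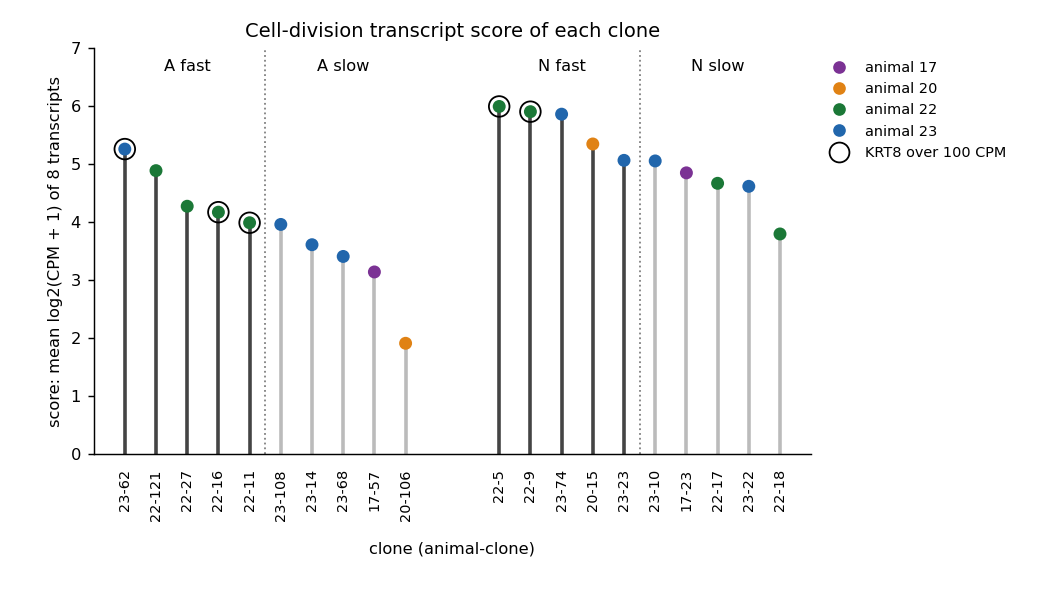
Score of each clone (mean log2(CPM + 1) of 8 transcripts), ordered within A and N clones. Dark stems mark fast and light stems slow clones, colours mark animals and rings mark the 5 clones with over 100 CPM of KRT8. The classes meet at 3.99 against 3.96 in A clones and at 5.06 against 5.05 in N clones.

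The animals were not spread evenly over the classes. All 4 A clones of animal 22 were fast, together with 1 clone of animal 23, and the slow A clones were 3 clones of animal 23 and the single clones of animals 17 and 20. Among N clones, animals 22 and 23 each gave 2 fast and 2 slow clones, animal 20 a fast clone and animal 17 a slow clone. All genes were also fitted with animal as a block, so that clones were compared within animals, and that value is given where it changes a call or a count.

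The ranking within conditions does not set the difference between conditions, which was tested. The score was 3.86 ± 0.94 in A and 5.11 ± 0.69 in N clones (SD, n = 10), a difference of -1.25 on the log2 scale (two-sided exact permutation test within animals, p = 0.00673). It was lower in the A than in the N clones of all 4 animals, with a difference of -1.71 for animal 17, -3.43 for animal 20, -0.76 for animal 22 and -1.09 for animal 23. In animals 22 and 23 alone the difference was -0.92 (exact permutation test, p = 0.0265), and without 20-106 it was -1.04 (exact permutation test, p = 0.00827). The ranges overlapped: 4 A clones lay below every N clone and 4 N clones above every A clone, and 4 of the 5 fast A clones scored below the highest slow N clone. Fast and slow are therefore positions within a condition and not shared levels.

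The same order appeared gene by gene in a fit of A against N clones with animal as a block (edgeR, quasi-likelihood test, p-values adjusted after Benjamini and Hochberg). Over all 13864 genes tested, 10.0% were lower and 10.8% higher in A clones at an adjusted p under 0.05. Of the 8 score transcripts, 7 were lower in A clones and none higher. MKI67, the antigen Ki-67, differed by -1.78 ± 0.52 (log2, SE) with an adjusted p of 0.0232 in edgeR, and CDK1, the kinase that starts mitosis, by -1.37 ± 0.31 with an adjusted p of 0.00643. CCNB1, its cyclin, differed by -1.23 ± 0.44 and did not pass (edgeR adjusted p = 0.0566). Of 78 other genes of mitosis 37 were lower and 0 higher in A clones, and of 72 S-phase genes 18 were lower and 1 higher.

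The levels of the 8 transcripts in fast and slow clones chose the classes and are given as a description, with no test. Levels from here on, and the summed marker levels given above, are CPM scaled by TMM factors. Levels of single clones are listed in the order of the scores above. MKI67 stood at 97.7, 62.3, 39.7, 32.4 and 39.7 CPM in the fast A clones and at 34.6, 20.3, 16.2, 10.2 and 1.03 CPM in the slow A clones. Levels in N clones were 202, 180, 156, 87.6 and 113 CPM in the fast and 87.4, 65.1, 57.5, 52.2 and 25.2 CPM in the slow class. The classes of A clones overlapped at a single pair, 34.6 CPM in slow 23-108 against 32.4 CPM in fast 22-16, and the slow clone 20-106 had the lowest level of all.

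CCNB1 was the only one of the 8 whose classes did not overlap in either condition. It stood at 37.7, 28.2, 16.1, 14.6 and 11.3 CPM in fast and 11.2, 7.98, 8.74, 5.78 and 0.833 CPM in slow A clones. In N clones it was at 50.6, 50.6, 48.9, 28.6 and 25.6 CPM against 23.0, 18.6, 23.5, 16.0 and 11.2 CPM. The ranges of the slow N and the fast A clones overlapped.

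Mean levels in fast and slow clones of both conditions together were 52.0 ± 27.8 and 22.2 ± 13.8 CPM (SD, n = 10) for TOP2A, the topoisomerase that untangles replicated DNA. BUB1, a spindle checkpoint kinase, was at 18.9 ± 10.7 against 8.0 ± 4.99 CPM and PLK1, a kinase of mitotic entry, at 19.7 ± 9.05 against 9.54 ± 4.37 CPM. The smallest difference was that of AURKB, the kinase of the chromosomal passenger complex, at 13.1 ± 4.48 against 8.95 ± 2.67 CPM. Fitted with condition as covariate, the log2 differences of the 8 transcripts ran from 0.53 for AURKB to 1.54 for MKI67, with a median of 1.16.

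**Figure D2:**
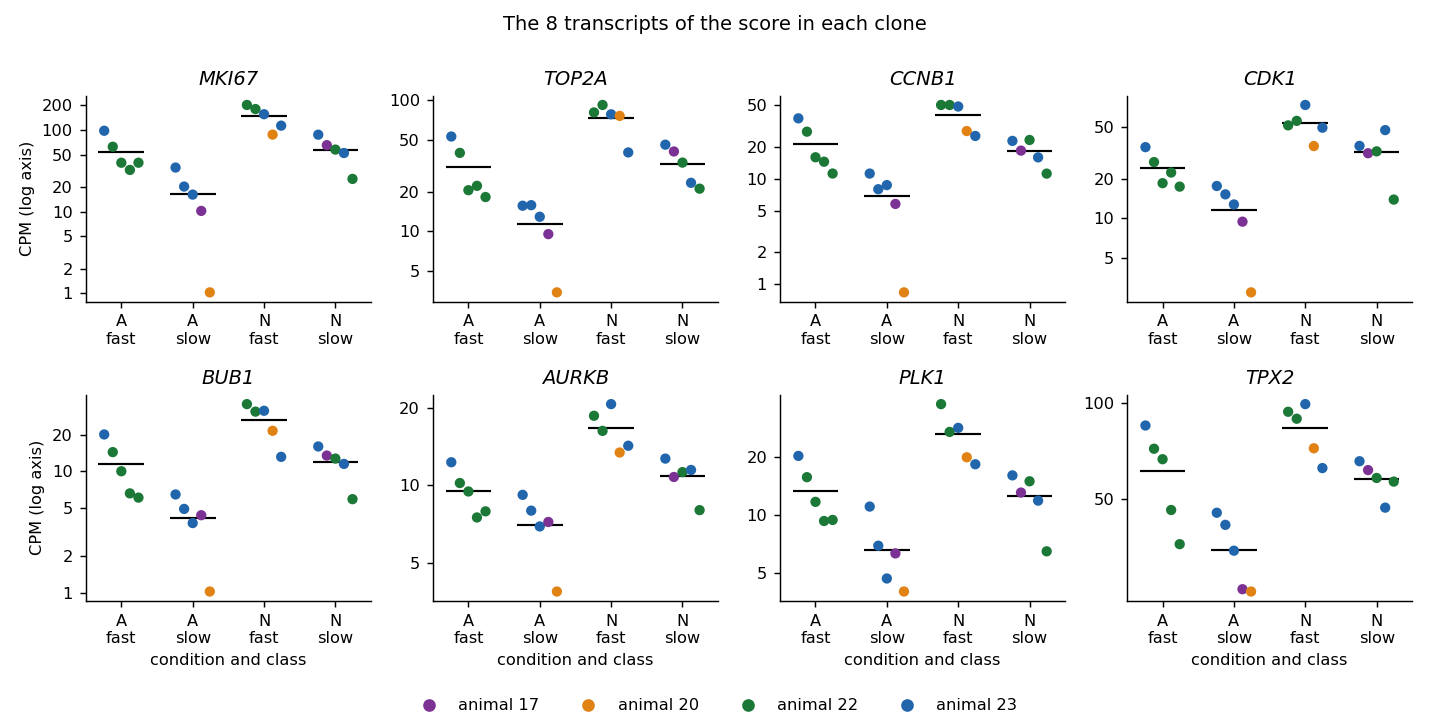
Level of each of the 8 score transcripts per clone (CPM, log axis) in fast and slow clones of each condition, coloured by animal, with lines at the group means. Slow A clone 20-106 is lowest in all 8, with 1.03 CPM of MKI67, and the CCNB1 classes do not overlap in either condition.

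Fast and slow clones were then compared over all genes with condition as covariate. The score was measured in the same libraries, so a p-value measures association with a grouping that was itself selected on transcripts. Genes of the score and of the lists of mitosis and S phase are given as counts and sizes only. Other genes of the cell cycle lie outside these lists, among them CCNF, TRIP13, CKAP2, CENPT and CDK2. Their p-values carry the same limit. At an adjusted p under 0.05, 29 genes (0.209% of those tested) were higher and 5 (0.0361%) lower in fast clones, 20 and 4 of them by at least 2-fold. All adjusted p-values of these 34 genes lay at 0.0417 or above, close under the threshold, and 1923 genes had an unadjusted p under 0.05. With animal as a block the counts were 104 higher (0.750%) and 16 lower (0.115%), and 30 of the 34 genes were among them.

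The count of calls depended on single clones. Without 23-23 it was 309, without 20-15 it was 159, without 23-10 it was 90 and without 20-106 it was 66, whereas it was 13 without 17-23 and 2 without 23-14. It was 0 without any one of 22-5, 22-9, 22-17, 22-18, 23-22, 17-57, 22-16, 22-27, 22-121, 23-62 and 23-68. The directions of the 34 genes were the same in every one of these fits.

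When the score of each clone was used in place of the classes, more genes were called: 385 higher (2.78%) and 208 lower (1.5%) with rising score, and 363 (2.62%) and 195 (1.41%) with animal as a block. A slope in this fit is the log2 change of a gene for each unit of the score. In both of these fits 384 genes were called in the same direction, of which 259 lay outside the score genes and the lists of mitosis and S phase, 166 rising and 93 falling. The lists do not hold every gene of the cell cycle. Such genes, for example CCNF, KIF18B, PLK4 and SPAG5, are among the 166, which are therefore not a count of genes unrelated to division.

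Genes of mitosis and the spindle moved together with the classes, as 78 of 78 had a log2 difference above 0. The median was 1.0 against -0.01 over all genes tested. Of the 78, 13 were called higher and 0 lower, and with animal as a block 46 were called higher. Over all genes tested 0.209% were called higher, and 0.750% with the block. The classes were set on transcripts of dividing cells, so a shift of this list was built into the grouping and is a description only. The largest differences were those of PSRC1 (1.79), ASPM (1.69), CDC20 (1.69), TROAP (1.68) and FOXM1 (1.64). CDC20 activates the ligase that ends mitosis, ASPM organises the spindle poles and FOXM1 is a transcription factor of G2 and mitosis genes. The smallest were those of BUB3 (0.06), UBE2S (0.22) and NCAPG (0.29). Without the 5 clones with over 100 CPM of KRT8, described below, PSRC1 differed by 0.98 and the median of the list was 0.92.

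CDC20 may serve as the example. It stood at 24.3, 17.1, 8.82, 7.39 and 6.65 CPM in fast and 6.23, 4.12, 1.59, 2.45 and 0.490 CPM in slow A clones, and at 35.9, 35.8, 45.7, 20.6 and 19.8 CPM in fast and 19.2, 14.5, 14.6, 11.2 and 5.31 CPM in slow N clones. Every fast clone was above every slow clone of its condition. Of all genes tested, 16 (0.115%) had that pattern in both conditions and 0 (0.0%) the opposite one. They were 10 genes of the mitosis list (BUB1B, CDC20, CENPA, CENPF, KIF14, KIF20A, KIF2C, NDC80, PIMREG and TROAP), CCNB1 of the score, GINS2 of the replication helicase, and CIP2A, PCLAF, SPAG5 and TREX1 of no list.

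Genes of DNA replication and S phase differed less. Of 72, 70 had a log2 difference above 0 and 2 below it, with a median of 0.61. Between the classes 1 was called higher, 14 with animal as a block and 50 on the continuous score. Over all genes tested, 0.209%, 0.750% and 2.78% were called higher in these fits. How far the order of the mitosis and S-phase lists depends on the transcripts of the score was not tested. The largest differences were those of E2F2 (3.01), E2F8 (1.80), ASF1B (1.40), RRM2 (1.36) and CLSPN (1.32). E2F2 and E2F8 are transcription factors of S-phase genes, ASF1B is a histone chaperone, RRM2 a subunit of the enzyme that makes deoxynucleotides and CLSPN an adaptor of the replication checkpoint. The level of E2F2 was 25.4 CPM in 22-9 and 15.0 CPM in 22-5 but at most 3.97 CPM in any other clone, and its difference without the 5 clones of high KRT8 was 0.59. At the other end stood BRIP1 (-0.26), a helicase of DNA repair, CCNE1 (-0.13), a cyclin of S-phase entry, and TIMELESS (0.03), a protein of the replication fork.

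The brakes and starters of G1 showed no such shift. Of 29 genes of the list of CDK inhibitors and G1 control, 16 were above and 13 below 0, the median was 0.03 and none was called in either direction by edgeR, with or without the animal block. CDKN1A, the p53-responsive inhibitor p21, was at 146, 366, 206, 198 and 150 CPM in fast and 236, 352, 91.9, 119 and 518 CPM in slow A clones. Among N clones the levels were 370, 250, 261, 242 and 201 CPM against 240, 163, 184, 316 and 116 CPM. The classes overlapped in both conditions, and the fitted difference was 0.04 ± 0.29 (log2, SE).

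The other inhibitors differed by 0.36 ± 0.30 for CDKN1B (p27), -0.35 ± 0.20 for CDKN2A, -0.54 ± 0.45 for CDKN2B, 0.44 ± 0.26 for CDKN2C and -0.07 ± 0.22 for CDKN2D. CDKN1C (p57) differed by -1.65 ± 1.11, but by 0.28 without 17-23, whose level was 8.67 CPM when no other N clone passed 1.46 CPM, and by 0.09 with the animal block. The D-type cyclins differed by -0.06 ± 0.23 for CCND1, -0.17 ± 0.33 for CCND2 and -0.05 ± 0.16 for CCND3. On the continuous score, 5 of the 29 genes of the list rose, where 2.78% of all genes tested did: CDKN2C, CDK2, CDK4, CDC25A and LIN9. The score is made of cell-cycle transcripts of the same libraries, so this count is a description only and the p-values carry that limit. The call of CDK4 was lost with animal as a block (edgeR adjusted p = 0.0636). CDK2, the kinase of S-phase entry, had a slope of 0.60 ± 0.12 (edgeR adjusted p = 0.00335). CDKN2C, which inhibits CDK4 and CDK6, had a slope of 0.52 ± 0.14 (edgeR adjusted p = 0.0416).

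p53 targets were likewise spread around 0, with 15 above and 12 below it, a median of 0.01 and no call between the classes. Of 24 senescence-associated genes tested, 8 were above and 16 below 0, with a median of -0.31 and no call between the classes. With animal as a block LMNB1 was called higher. On the continuous score, LMNB1, the lamin lost in senescent cells, and HMGB1, a chromatin protein, rose. IGFBP7, a secreted binding protein of insulin-like growth factors, TIMP1, an inhibitor of matrix proteases, and CXCL8, a chemokine, fell. Over all genes tested, 2.78% rose and 1.5% fell in that fit. IGFBP7 had a slope of -0.79 ± 0.14 (edgeR adjusted p = 0.00184) and TIMP1 of -0.65 ± 0.12 (edgeR adjusted p = 0.00213). With animal as a block the edgeR adjusted p was 0.00601 for IGFBP7, 0.0130 for TIMP1 and 0.560 for CXCL8.

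IGFBP7 was at 275, 548, 619, 537 and 387 CPM in fast and 1117, 975, 1517, 1930 and 2219 CPM in slow A clones. N clones had 471, 302, 786, 410 and 540 CPM in fast and 720, 826, 394, 657 and 1412 CPM in slow clones. The classes were separate in A clones and overlapped in N clones, and the difference between the conditions in this respect was not called (edgeR interaction, -1.04 ± 0.46, adjusted p = 0.736). Over both conditions the class difference was -1.20 ± 0.26 and just missed the threshold (edgeR adjusted p = 0.0543).

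**Figure D3:**
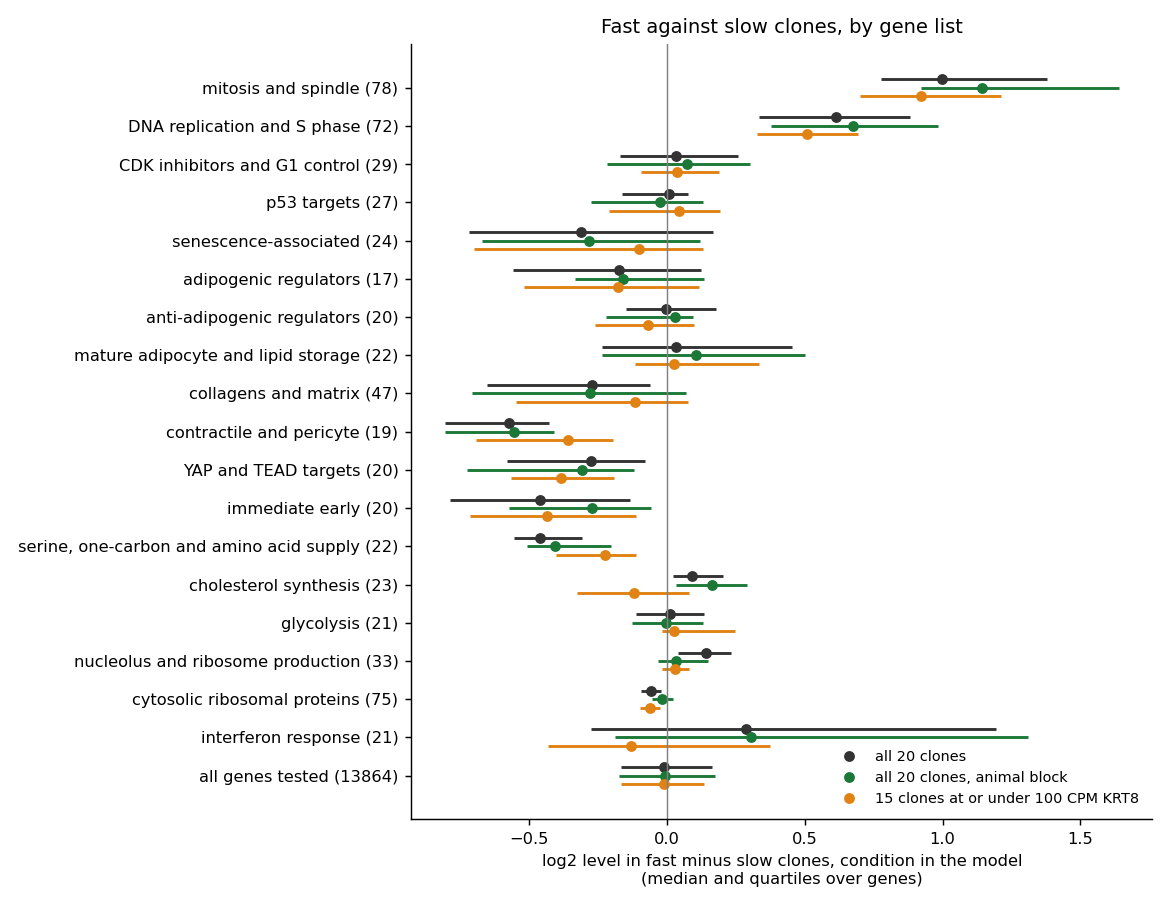
Median (points) and quartiles (lines) over the genes of each list of the log2 difference between fast and slow clones, with the number of genes tested in brackets. Black shows all 20 clones, green the fit with animal as a block and orange the 15 clones at or under 100 CPM of KRT8. Mitosis (median 1.0) and S-phase genes (0.61) stand to the right, contractile genes (-0.57) to the left, and the median of cholesterol synthesis is 0.09 with all clones and -0.12 without the 5 clones (0.08 without them when animal is a block as well, not drawn).

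Outside the score and the lists of mitosis and S phase, 18 genes were called. The named genes that rose by at least 2-fold were CCNF, TRIP13 and SYCE2. STEAP4, FRAS1 and CFI were called as well, but passed the filter on low counts only through fast clones and are given by their levels further on. CCNF, or cyclin F, is a substrate receptor of a ubiquitin ligase active in G2. It was at 14.3, 8.03, 6.99, 6.64 and 6.65 CPM in fast and 5.82, 3.40, 1.73, 2.31 and 1.47 CPM in slow A clones, and at 20.0, 15.0, 13.5, 12.5 and 7.23 CPM against 7.75, 6.13, 6.33, 5.49 and 3.65 CPM in N clones. All fast A clones were above all slow A clones, and only fast 23-23 fell within the slow N range. The difference was 1.37 ± 0.25 (edgeR adjusted p = 0.0417).

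TRIP13, an ATPase of the spindle checkpoint, rose by 1.17 ± 0.22 (edgeR adjusted p = 0.0417). SYCE2, named for its role in the meiotic synaptonemal complex, rose by 1.16 ± 0.24 (edgeR adjusted p = 0.0463, and 0.0736 with the animal block). With changes under 2-fold, genes that passed were CIP2A (0.71 ± 0.14), an inhibitor of a protein phosphatase, CKAP2 (0.66 ± 0.13), a spindle protein, and TREX1 (0.68 ± 0.12). LMNB2 (0.77 ± 0.16), a lamin, and CENPT (0.84 ± 0.17), a kinetochore protein, passed too and are named after their values were seen.

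TREX1, a nuclease of DNA in the cytoplasm, was at 9.26, 7.97, 7.84, 9.62 and 9.93 CPM in the fast and 5.86, 6.48, 4.98, 7.08 and 5.14 CPM in the slow A clones. N clones had 13.6, 9.79, 9.55, 9.10 and 9.03 CPM against 6.45, 5.64, 5.39, 7.83 and 4.80 CPM. All 10 fast clones were above all 10 slow clones, by a narrow margin of 7.84 against 7.83 CPM (edgeR adjusted p = 0.0417, and 0.0268 with the animal block). Between A and N clones it was not called (-0.14 ± 0.19, edgeR adjusted p = 0.628).

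Among the named genes, 4 were called lower in fast clones: CDKL4, SELENOV, TBX18 and, with a change under 2-fold, FAM8A1. CDKL4, a kinase related by sequence to the CDKs, was at 8.96, 11.1, 14.2, 14.5 and 13.9 CPM in fast and 22.4, 23.6, 31.7, 20.8 and 45.5 CPM in slow A clones. In N clones it was at 5.23, 8.96, 8.33, 4.46 and 6.26 CPM against 8.46, 10.1, 18.7, 9.35 and 16.8 CPM. The classes were separate in A clones, and in N clones only fast 22-9 reached the slow range. The difference was -1.06 ± 0.19 (edgeR adjusted p = 0.0417), and -1.08 without the 5 clones of high KRT8.

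TBX18, a T-box transcription factor of mesothelial and mural cell lineages, was at 40.8, 58.5, 70.1, 58.3 and 45.3 CPM in fast and 72.9, 111, 197, 97.2 and 123 CPM in slow A clones. In N clones it was at 17.6, 30.6, 19.5, 37.4 and 34.1 CPM against 33.7, 58.6, 74.5, 28.1 and 93.0 CPM, where slow 23-22 and 23-10 lay within the fast range. It fell by 1.09 on the log2 scale (SE 0.22, edgeR adjusted p = 0.0461). SELENOV, a selenoprotein, differed by -1.43 ± 0.28 (edgeR adjusted p = 0.0461), and FAM8A1, a membrane protein of the endoplasmic reticulum, by -0.58 ± 0.11 (edgeR adjusted p = 0.0417).

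Of the genes next in order, which did not pass, PLBD1, a lysosomal phospholipase homologue, differed most, by -3.01 ± 0.67 (edgeR adjusted p = 0.0547). PGM2L1, an enzyme of glucose bisphosphate synthesis, differed by -1.34 ± 0.30, SYCP2 by -1.25 ± 0.28, HEATR5A by -0.51 ± 0.11 and STRN3, a scaffold of a phosphatase complex, by -0.27 ± 0.06. PGM2L1 passed with animal as a block (edgeR adjusted p = 0.0429). On the continuous score, the 5 genes of smallest p outside the cycle lists in each direction, picked after their values were seen, were IQGAP3, SPAG5, ERCC6L, PHF19 and CCNF rising and ANO6, CDKL4, SERINC1, SERINC3 and ATRN falling. IQGAP3, a scaffold of the cell cortex, had a slope of 1.25 ± 0.06, and ANO6, a membrane phospholipid scramblase, one of -0.41 ± 0.06.

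**Figure D4:**
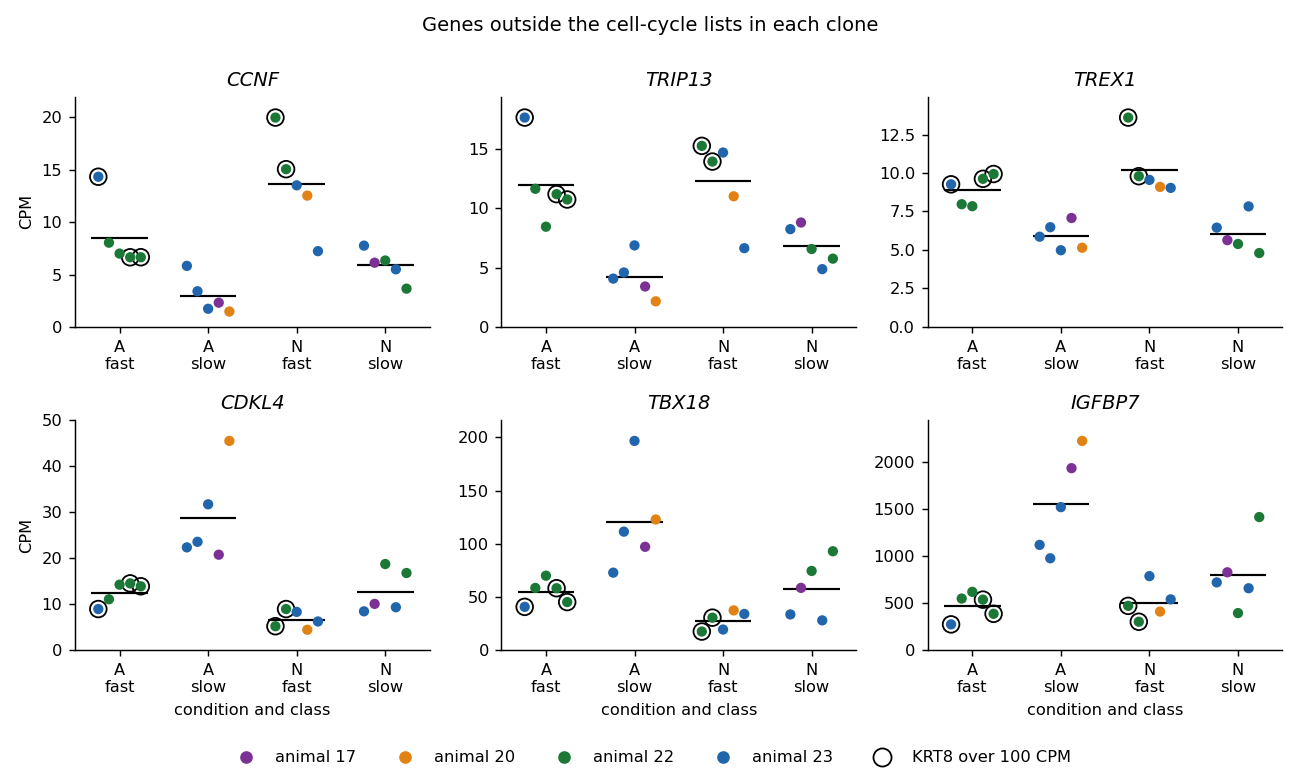
Level (CPM) of 6 genes outside the cell-cycle lists per clone, by condition and class, coloured by animal, with lines at the group means and rings at the 5 clones with over 100 CPM of KRT8. CCNF and TRIP13, which are themselves genes of the cell cycle, and TREX1 are higher in fast clones. CDKL4 and TBX18 are lower, and IGFBP7 (275 to 786 CPM in fast, 394 to 2219 CPM in slow clones) did not pass the test.

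Markers of mesothelium, the epithelial cell layer that lines the body cavity and covers visceral fat, were high in some of the fast clones. KRT8, a keratin of simple epithelia, was at 4758 CPM in 22-5 and 2712 CPM in 22-9 among fast N clones, and at 579 CPM in 22-11, 440 CPM in 22-16 and 158 CPM in 23-62 among fast A clones. It was at most 13.3 CPM in the other 15 clones, so that all 5 clones over 100 CPM were fast. Of the 12 markers of the mesothelial and epithelial list, 10 were tested. All 10 had a difference above 0, with a median of 3.46, and none was called. With animal as a block 9 were above 0 and 1 below. The filter on low counts passes a gene that is high in a single group of clones. Members may thus have been tested because fast clones held them high, so these counts and the median are a description only. On the continuous score KRT8 (edgeR adjusted p = 0.0214) and LRRN4 (edgeR adjusted p = 0.0273) were called, where 2.78% of all genes tested rose. Both calls were lost with the block (edgeR adjusted p = 0.109 and 0.125), and the limit of the filter holds for these p-values as well. The summed level of the list ranged from 21.3 to 9172 CPM in fast and from 9.29 to 295 CPM in slow clones. KRT7 and EPCAM did not pass the filter on low counts. Without the 5 clones, 3 of 9 markers were above 0 and 6 below, with a median of -0.30, and with animal as a block as well 7 were above and 2 below, with a median of 0.57.

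STEAP4, FRAS1 and CFI followed these clones. STEAP4, a metalloreductase, was at 13.9 CPM in 22-11, 6.08 CPM in 22-16, 4.67 CPM in 22-5, 3.46 CPM in 22-9 and 0.610 CPM in 23-62, and at most 0.327 CPM elsewhere. FRAS1, a protein of epithelial basement membranes, was at 20.5 CPM in 22-9 and 9.22 CPM in 22-5, and at 3.60, 2.04 and 1.71 CPM in 22-16, 22-11 and 23-62. CFI, a protease of the complement system, was at 6.75, 5.19, 4.59, 3.50 and 1.52 CPM in 22-5, 22-9, 22-16, 22-11 and 23-62. In slow clones their counts were at most 2, 4 and 5 per library, so no fold change is given. Their calls were lost with the animal block (edgeR adjusted p = 0.248, 0.171 and 0.176), and without the 5 clones they were too low to be tested.

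Without the 5 clones of high KRT8, edgeR called 0 genes between 5 fast and 10 slow clones (654 had an unadjusted p under 0.05), and 0 with animal as a block (935 unadjusted). The 31 of the 34 genes that could be tested kept their direction, and the medians of the mitosis and S-phase lists were 0.92 and 0.51, against 1.0 and 0.61 with all clones. The part of the KRT8-rich clones in the other differences was not tested.

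**Figure D5:**
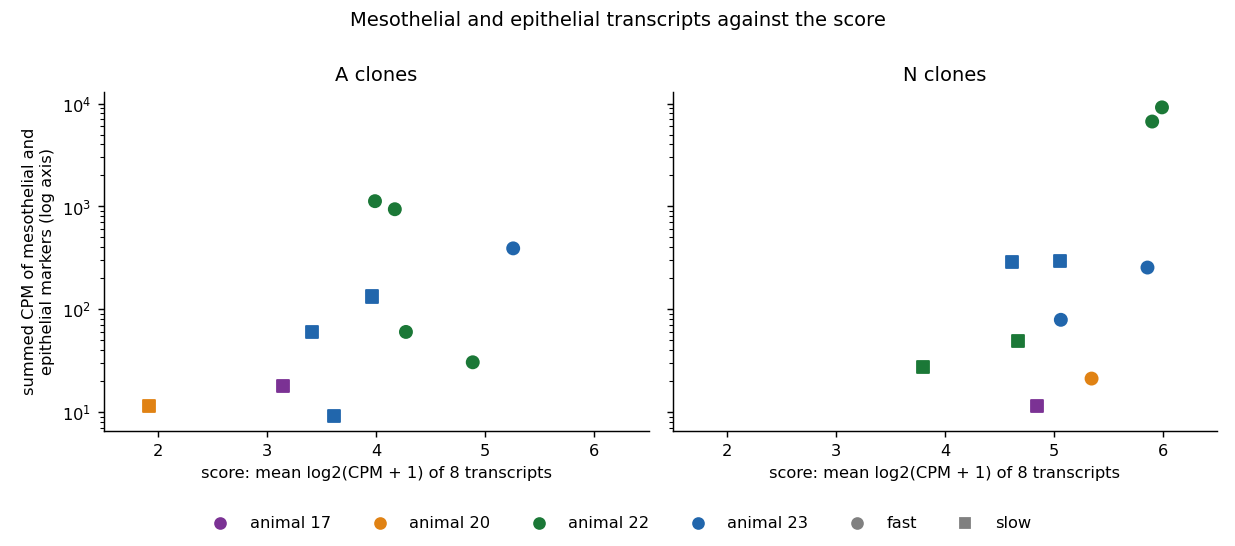
Summed level of 12 mesothelial and epithelial markers (CPM, log axis) against the score of each clone, for A clones (left) and N clones (right), with circles for fast and squares for slow clones and colours for animals. The 2 N clones of highest score, 22-5 and 22-9, carry 9172 and 6680 CPM, and fast clones such as 20-15 carry 21.3 CPM.

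None of the genes that the study ties to adipogenic capacity was called between fast and slow clones. PPARG, the master regulator of adipocyte differentiation, was at 7.98, 19.7, 10.8, 6.08 and 4.29 CPM in fast and 9.67, 4.58, 6.79, 19.8 and 12.8 CPM in slow A clones, with overlapping ranges. Its highest level in N clones was 0.366 CPM in the fast class and 6.31 CPM (22-18) in the slow class. The fitted difference was -1.48 ± 0.77 over both conditions (edgeR adjusted p = 0.404) and -0.15 among A clones alone. CEBPA, which acts with PPARG, differed by -1.38 ± 0.76 (edgeR adjusted p = 0.424).

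Of 17 adipogenic regulators tested, 7 were above and 10 below 0, of 20 anti-adipogenic genes 10 and 10, and of 22 genes of mature adipocytes and lipid storage 12 and 10. The medians were -0.17, 0.00 and 0.03, with no call between the classes in any list. AGPAT2, an enzyme of triglyceride synthesis, came nearest, at 7.80, 16.5, 18.1, 11.3 and 8.29 CPM in fast and 34.8, 19.0, 22.3, 55.3 and 41.1 CPM in slow A clones. These ranges did not overlap, whereas in N clones 1.53 to 10.9 CPM stood against 5.50 to 14.4 CPM. The difference was -1.18 ± 0.33 (edgeR adjusted p = 0.0925, and 0.242 with the animal block). PLIN1 of the lipid droplet differed by 0.15 ± 0.18, the fatty acid synthase FASN by 0.49 ± 0.25, and the corepressors CTBP1 and RUNX1T1 by 0.04 ± 0.08 and -0.04 ± 0.18. On the continuous score 1 anti-adipogenic gene was called higher, where 2.78% of all genes tested were. On the score with the block 1 was higher and 1 lower, and 1 gene of mature adipocytes and lipid storage was higher. In that fit 2.62% of all genes tested were higher and 1.41% lower.

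None of the 8 surface genes of the study was called between the classes by edgeR. CD24, a surface glycoprotein of adipocyte progenitors, was at 2.56, 9.01, 18.7, 8.38 and 7.79 CPM in fast and 0.0366, 0.589, 0.939, 0.476 and 0.0490 CPM in slow A clones. The fast A clones were all above the slow ones, but 4 of the 5 came from animal 22, which gave no slow A clone. No read of CD24 was counted in any N clone, which allows up to 3 counts, or 0.201 CPM in the smallest N library. CD24 would not have passed the filter on low counts without the fast A clones, so no p-value between the classes is given.

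ANPEP, which encodes the aminopeptidase CD13, was at 26.3, 23.5, 25.7, 17.6 and 23.1 CPM in the fast A clones, within a narrow range. The slow A clones spread from 1.61 CPM in 23-108 to 547 CPM in 23-14, on both sides of that range. Over the clones of both conditions, with condition as covariate, the difference was -1.95 ± 0.92 (edgeR adjusted p = 0.357), and 0.02 without 23-14. ITGB1, the integrin beta 1 chain, fell with the continuous score by a slope of -0.31 ± 0.08 (edgeR adjusted p = 0.0314, and 0.0449 with the block). Between the classes it was at 2047 ± 260 CPM in fast and 2731 ± 746 CPM in slow clones (SD, n = 10).

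Several groups of genes leaned towards slow clones without a call in the fit of the classes. Of 19 contractile and pericyte genes 18 were below 0, with a median of -0.57, and 16 of 19 with a median of -0.36 without the KRT8-rich clones. MYL9, a myosin light chain, was at 680, 677, 788, 582 and 541 CPM in fast and 1188, 900, 880, 1319 and 836 CPM in slow A clones, and at 365 to 683 CPM against 576 to 1086 CPM in N clones. It differed by -0.57 ± 0.15 (edgeR adjusted p = 0.0731) and CALD1, the actin-binding protein caldesmon, by -0.63 ± 0.16 (edgeR adjusted p = 0.0673, and 0.0559 with the block). On the continuous score with the block CALD1 was called (edgeR adjusted p = 0.0228). MYH11, a smooth muscle myosin, differed by -2.74 ± 0.98 (edgeR adjusted p = 0.205).

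Of 20 targets of the transcription cofactor YAP, 17 were below 0 (median -0.28). On the continuous score 3 of them fell, where 1.5% of all genes tested did: CRIM1, MYOF and the matrix protein gene CTGF. The call of MYOF was lost with animal as a block (edgeR adjusted p = 0.0733). CRIM1, a membrane protein that binds growth factors, was also called lower with animal as a block. Of 47 genes of collagens and matrix 36 were below 0 (median -0.27). LAMB1, a laminin chain, fell on the continuous score (slope -0.37 ± 0.10, edgeR adjusted p = 0.0413, and 0.0979 with the block).

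Of 22 genes of serine, one-carbon and amino acid supply, 19 were below 0 (median -0.46). The 3 of smallest p were CBS, an enzyme of cysteine synthesis, at -0.72 ± 0.24, TRIB3, a pseudokinase of the amino acid response, at -1.0 ± 0.36, and the amino acid transporter SLC7A5 at -0.58 ± 0.23. Without the KRT8-rich clones the median of this list was -0.22. No gene of the list was called by edgeR between the classes, with or without the animal block.

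Of 20 immediate early genes, which respond within minutes to growth signals, 16 were below 0 in A clones with a median of -0.92, and 8 in N clones with a median of 0.07. The difference between these medians was not tested. FOS was at 14.9, 10.0, 27.5, 22.8 and 18.7 CPM in fast and 50.5, 227, 234, 178 and 143 CPM in slow A clones, a difference of -3.14 ± 0.43. This was 1 of 25 genes called among A clones alone, 9 higher (0.0683% of those tested) and 16 lower (0.121%), with an edgeR adjusted p of 0.0390. Of the fast A clones 4 of 5 came from animal 22, which gave no slow A clone, so class and animal cannot be told apart for these in the fit of A clones alone. Over all clones FOS differed by -1.75 ± 0.48 (edgeR adjusted p = 0.0911), and by -1.25 with animal as a block (edgeR adjusted p = 0.233). In N clones FOS was at 140 to 645 CPM in fast and 308 to 764 CPM in slow clones. A dependence of the class difference of FOS on the condition was not called (interaction -2.79 ± 0.60, edgeR adjusted p = 0.441). On the continuous score without the block JUN and DUSP1 fell, as did 1.5% of all genes tested, and neither passed with the block.

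Over all genes, no class difference was called as depending on the condition by edgeR, with 896 genes at an unadjusted p under 0.05 and a smallest adjusted p of 0.133. With animal as a block 1 gene was called, FAM71A, and on the continuous score 1, SLC5A1. Cholesterol synthesis genes had opposite signs in the conditions, with 7 of 23 above 0 among A clones (median -0.16) and 23 of 23 among N clones (median 0.39), and no member was called in either. Without the KRT8-rich clones 8 of 23 were above 0 (median -0.12), and 13 of 23 (median 0.08) when animal was a block as well.

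Genes of the nucleolus and ribosome production lay slightly above 0, with 29 of 33 positive and a median of 0.14. With animal as a block the count was 20 of 33 and the median 0.03. Cytosolic ribosomal protein genes had a median of -0.06, and 11 of 75 were above 0. The count was 27 of 75 with animal as a block, 38 of 75 without 22-5 and 22-9, 58 of 75 in A clones alone (median 0.05) and 2 of 75 in N clones alone (median -0.16), and the difference between conditions was not tested for the list. Glycolysis genes were spread around 0 (11 above, 10 below, median 0.01), and of 21 interferon-response genes 12 were above 0 with a median of 0.29, and 9 of 23 with a median of -0.13 without the KRT8-rich clones. Of 31 growth factor receptors and ligands 10 were above 0 (median -0.18). No gene of these lists was called between the classes.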

How the data were processed

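The authors deposited raw counts per gene for 20 libraries. According to the submitters' processing notes, reads were handled with bcl2fastq 2.20, Trimmomatic 0.36, STAR 2.5.2b and featureCounts of Subread 1.5.2 on build ARS-UCD1.2. The strand setting of the counting is not given in the sources used here, so genes that overlap on either strand, or have near copies, may share reads. Genes are named as in the table, which lists 33064 genes. The 1 unnamed gene, with 0.113% to 0.333% of a library, was left out, and 0 columns came from samples outside the series. Of 23383 named genes with a count, 13864 passed edgeR's default filter on condition and class.

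The score used CPM on column totals, with the unnamed gene included in the total, and a pseudocount of 1. Classes were compared with edgeR 4.0.16 in R 4.3.3 (TMM, robust quasi-likelihood F test, Benjamini-Hochberg adjustment) with condition as covariate. SE is the log2 difference divided by the root of F. Alternatives used the animal as block, the continuous score, other scalings, filters, classes and clones, DESeq2 1.42.0 and limma 3.58.1 (voom). These tests were run on simulated data with 200 genes changed by 2 on the log2 scale between fast and slow clones. The simulated data held no difference between conditions or animals. edgeR recovered 87.5% of the 200 with 7 false calls, and 84% with 4 when animal was a block. DESeq2 recovered 94% with 26 false calls, and voom 86% with 9. The fits without the KRT8-rich clones, of the score with the block, and of A against N genes were chosen after seeing the data. The study paired A and N clones by animal. After subtraction of condition means, the averaged A and N clones of one animal had correlations of 0.258 (animal 17), 0.188 (20), 0.274 (22) and 0.438 (23). Between single clones of different condition and class groups, after subtraction of group means, the mean correlation was 0.0666 within an animal (-0.294 to 0.418). It was -0.0257 between animals (-0.384 to 0.524), and these ranges overlapped. Clones were treated as replicates, and no pair of libraries was a duplicate. Intervals of counts cover counting error only.

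The members, lists and tests were chosen with earlier results of these data known. Named genes were the score genes, the study's genes, CDK inhibitors and D-type cyclins, the 3 members of smallest p of each list that the text describes (for cell-cycle lists those of largest and smallest difference), and outside the cell-cycle lists the 10 named genes of smallest p in each direction, where too few passed both thresholds filled by those next in order. Some genes that this rule names are not reported here.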

Additional observations from a re-analysis of the deposited data

Results flagged for a closer look

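Within the groups of 5 clones (fast or slow, A or N), 214 sets of values were examined for a single clone far from the other 4, measured as its gap to the nearest clone divided by the whole range. Chance flags about 1 in 20 groups, here 10.7, and 14 exceeded the 95% critical value of Dixon for groups of this size. Single-gene flags at this rate are close to the number that chance gives, and their causes were not tested.

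Among transcripts of division, TOP2A was low in fast N clone 23-23, at 39.9 CPM against 75.8 to 91.8 CPM in the other fast N clones (gap ratio 0.769). This clone lies beside the border between the classes, and leaving it out raised the number of called genes to 309. CCNF was high in fast A clone 23-62, at 14.3 against 6.64 to 8.03 CPM (0.760), as was CIP2A, at 15.4 against 7.68 to 9.28 CPM (0.735). TREX1 was high in fast N clone 22-5, at 13.6 against 9.03 to 9.79 CPM (0.806). SYCE2 was low in slow A clone 20-106, at 0.784 against 1.32 to 1.56 CPM (0.722).

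Among CDK inhibitors, CDKN1B was high in fast A clone 22-121, at 23.9 against 10.6 to 13.3 CPM (0.728). CDKN1C was high in fast N clone 22-5, at 1.46 against at most 0.119 CPM (0.875), and in slow N clone 17-23, at 8.67 against at most 0.135 CPM (0.944).

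The genes found in the KRT8-rich clones were near 0 in slow clones, where 1 clone with a few reads stands out by construction. STEAP4 was read in slow A clone 23-68 (0.144 CPM) and slow N clone 22-17 (0.0449 CPM) only (gap ratio 1.0 in both). FRAS1 was read in slow A clone 23-108 (0.110 CPM) and slow N clone 23-10 (0.237 CPM) only (1.0 in both). CFI in slow A clone 23-68 was at 0.361 CPM against at most 0.0680 CPM (0.786).

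The library of fast A clone 22-11 held 28193206 named counts against 15597089 to 16087550 in the other fast A clones (gap ratio of the log2 totals 0.948).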

How the results depend on the processing

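The number of genes called between fast and slow clones, 34 (24 of them by at least 2-fold), was the least stable result, and the cause was not tested where none is named. It was 120 (86) with animal as a block, 16 (11) with no filter, 68 (39) with at least 10 counts in every clone, 514 (265) in the DESeq2 Wald test, 121 (84) in limma-voom, 593 (116) on the continuous score and 558 (97) on the score with the block. With other classes it was 2 (1) on TMM-scaled scores, 352 (161) on the S-phase list and 0 (0) with classes set within animals 22 and 23 (1672 genes at an unadjusted p under 0.05). With fewer clones it was 0 (0) in N clones alone (704 unadjusted), 0 (0) in animals 22 and 23 alone (1986 unadjusted), 105 (72) without the clones at the border, 0 (0) without the 5 KRT8-rich clones with or without the block, and 0 (0) without 22-5 and 22-9 (1528 unadjusted). Leaving out 1 clone at a time gave 0 to 309 (0 to 164). The count was within 1.5 times with other scaling factors and without robust dispersion. In A clones alone it was 25, but 9 were higher and 16 lower, and only 1 of them was among the 34.

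Interaction calls, 0 in the main comparison, were 1 with the animal block, 1 on the continuous score and 0 to 2 when 1 clone was left out. The score difference between A and N clones kept its sign and passed in every alternative, from -1.41 to -1.04 without 1 clone, at -1.15 on TMM-scaled CPM and at -0.51 on the S-phase list. The difference in total counts ranged from -5264000 to -1655000 without 1 clone and did not pass in any. Of 125 named genes, 0 reversed a call. Too few macrophage and endothelial markers had at least 10 counts in every clone to give a median under that filter.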
